A study of Macaca fascicularis with 16 samples.

Results

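Mammary tissue of macaques given tibolone was set against mammary tissue of untreated macaques, with 4 arrays labelled as 0.2 mg/kg tibolone and 4 labelled as control, without treatment, out of the 16 arrays of the series. All probe sets other than the Affymetrix controls were taken if their signal exceeded 60.2, the median of the table, on at least 4 of the 16 arrays, which left 28716 of 52865 probe sets. All animals in every group were ovariectomized, postmenopausal female cynomolgus macaques (Macaca fascicularis), and each gave 1 array. The other arrays came from 4 animals given 0.042 mg/kg conjugated equine estrogens (CEE) and 4 given the same dose with 0.167 mg/kg medroxyprogesterone acetate (CEE+MPA), and neither the route nor the length of treatment is given in the sources used here. Those arrays entered the model that estimates the spread between animals, and they were used to place the genes described here. The p-values measure the spread between single animals.

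Tibolone is a synthetic steroid that the body converts to several metabolites. Its hydroxylated metabolites bind estrogen receptors, while tibolone and its ketone isomer bind progesterone and androgen receptors. In breast tissue the balance of these activities is also set by the enzymes that make, sulfate and desulfate estrogens, and the labels of the series place the comparison among hormone replacement therapies.

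Tissue differed between animals within both groups. Skeletal muscle genes, which mark tissue that is not mammary gland, were high on tibolone arrays 2 and 3 and on control array 1. The mean of that list of 20 tested genes, on the log2 scale with each gene centred over all arrays, was -0.32, 2.18, 1.40 and -0.72 on the tibolone arrays and 2.29, -0.83, -0.08 and -0.51 on the control arrays. CKM, the muscle creatine kinase, had signals of 126, 1335, 924 and 63.4 on the tibolone arrays and 2165, 42.3, 136 and 72.5 on the control arrays. Of the mammary markers, CSN2 (beta-casein) had 11871 to 17462 in tibolone animals and 11988 to 12162 in controls, and KRT19, a luminal keratin, had 10401 to 19569 in tibolone animals and 13414 to 15852 in controls. Other milk and luminal genes were uneven: LALBA (alpha-lactalbumin) had 799 and 106 on tibolone arrays 3 and 4, against 10825 to 17956 in controls, and the luminal list mean was 0.32, 0.18, -0.49 and -0.16 on the tibolone arrays and -0.03, 0.08, -0.03 and -0.13 on the control arrays. The spike-in controls dap and thr divided the arrays into a low set of 6 and a high set of 10 that the labels do not name. All 4 tibolone arrays lay in the high set, with control arrays 1 and 2, while control arrays 3 and 4 lay in the low set. The tibolone arrays were still apart from both pairs of controls. Their mean log2 signal of thr was 6.22 to 6.36, against 6.63 and 6.70 on control arrays 1 and 2. It was 5.87 and 5.79 on control arrays 3 and 4, so no control array matched a tibolone array in spike-in level. Within groups the arrays correlated at 0.915 to 0.952 for tibolone and 0.948 to 0.961 for control (Pearson's r over tested probe sets).

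**Figure D1:**
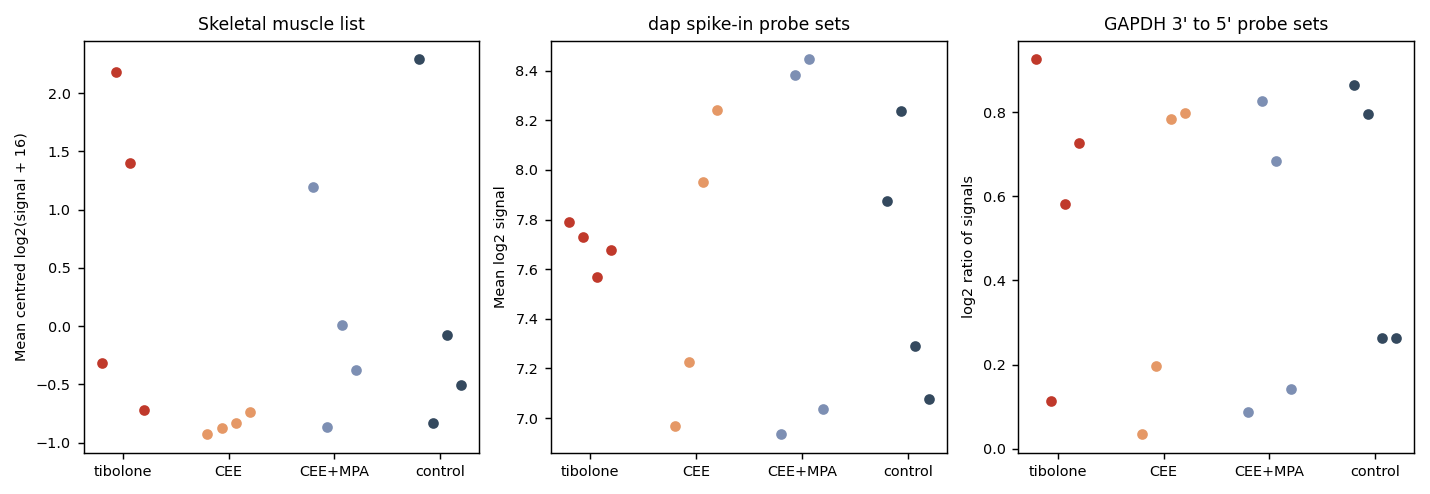
Per-array summaries in the order tibolone, CEE, CEE+MPA and control, with replicates 1 to 4 from left to right in each group: mean of the skeletal muscle list (centred log2 of signal + 16), mean log2 signal of the dap spike-in probe sets, and the log2 ratio of the 3' to the 5' GAPDH probe sets. Skeletal muscle means exceed 1 on tibolone arrays 2 and 3, CEE+MPA array 1 and control array 1, and the 4 tibolone arrays lie between 7.57 and 7.79 for dap while the control arrays lie between 7.08 and 8.24.

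Few probe sets separated tibolone from control, and those that did were higher with tibolone. Of 28716 probe sets, 7 rose and 0 fell at an adjusted p under 0.05 (limma, Benjamini-Hochberg), which is 0.0244% of those tested. At an unadjusted p under 0.05, 843 probe sets were higher (2.94%) and 709 lower (2.47%), together 5.4% of those tested. The side with more probe sets depended on scaling and filter. Higher and lower counts were 726 and 811 with quantile normalization and 755 and 787 with median centring. They were 354 and 438 with the filter at the 75th percentile and 2075 and 1057 with no filter on low signal. The signals of the 4 tibolone arrays all lay above those of the 4 control arrays for 546 probe sets (1.9%) and all below them for 439 (1.53%). With 1 probe set for each of 10455 genes, 1 gene rose (0.00956%) and 0 fell, and 270 genes were higher (2.58%) and 235 lower (2.25%) at an unadjusted p under 0.05, together 4.83%. With median centring 230 genes were higher and 254 lower, and with quantile normalization 255 and 249. The groups did not overlap for 189 genes on the higher side (1.81%) and 136 on the lower side (1.3%). Leaving out control array 1 gave 3 probe sets and 2 genes that fell, and leaving out tibolone array 4 gave 1 probe set. The count of genes that rose was 2 without control array 3, control array 4, tibolone array 1 or tibolone array 4. The median log2 change was 0.01 over all genes tested, and 52.4% of genes lay above 0.

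**Figure D2:**
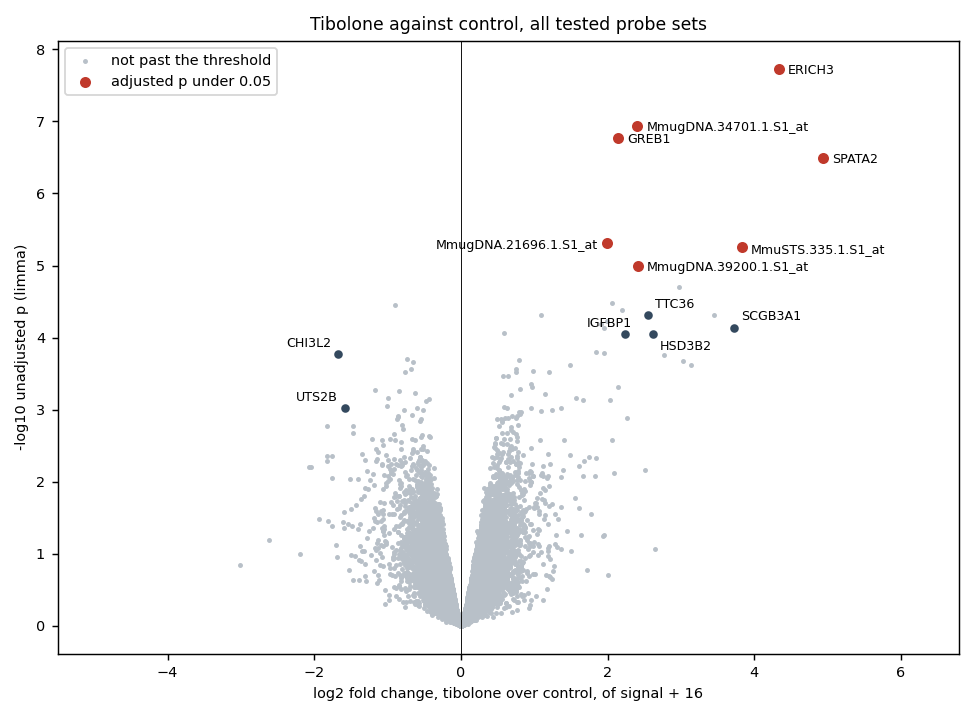
Log2 fold change of signal + 16 (tibolone over control, x axis) against -log10 of the unadjusted limma p (y axis) for all 28716 tested probe sets. The 7 probe sets with an adjusted p under 0.05 (large points) all lie on the right, between 1.99 and 4.93, and 6 named genes that missed the threshold are marked with dark points.

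GREB1, a cofactor of the estrogen receptor and one of its best known targets in breast cells, was the 1 gene that rose, and it had a single tested probe set. Its signals were 209, 222, 149.8 and 150.4 on the tibolone arrays and 41.4, 21.7, 23.3 and 30.1 on the control arrays. Every tibolone array stood above every control array, and the log2 fold change was 2.14 ± 0.24 (SE, limma, adjusted p = 0.00163). With CEE the signals were 431, 514, 398 and 234, and with CEE+MPA they were 69.9, 97.7, 57.8 and 43.1. The tibolone arrays lay below every CEE array and above every CEE+MPA array. Its difference from CEE was -1.01 ± 0.24 (adjusted p = 0.218) and missed the threshold, while its difference from CEE+MPA was 1.28 ± 0.24 (adjusted p = 0.013) and passed it, though not without tibolone array 2 (1.19, adjusted p = 0.0517).

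ERICH3, which encodes a glutamate-rich protein, had the smallest p of the comparison at 1 of its 4 probe sets. The probe set MmugDNA.10470.1.S1_at had signals of 850.2, 2331, 1007 and 551 with tibolone and 51.1, 41.2, 30.6 and 23.5 in controls. The groups were far apart, and the log2 fold change reached 4.34 ± 0.42 (limma, adjusted p = 0.00053). A second ERICH3 probe set, MmugDNA.32943.1.S1_at, also had no overlap between the groups but a smaller difference of 1.37 ± 0.34, which missed the threshold (limma, adjusted p = 0.454). Its signals were dim, at 46.1, 114.9, 32.4 and 38.9 with tibolone and 18.8, 5.17, 16.6 and 4.26 in controls. It exceeded the signal that the filter required only on tibolone array 2 and CEE arrays 1 to 3. The other 2 ERICH3 probe sets had log2 differences of 0.05 and 0.02, so the probe sets assigned to this gene disagreed. CEE arrays had 1060.2, 688, 789.8 and 237 at the probe set that rose, a range that the tibolone arrays overlapped, and CEE+MPA arrays had 62.6, 96.2, 75.1 and 97.5.

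The largest fold change belonged to MmuSTS.802.1.S1_at, which the platform annotation assigns to SPATA2, an adaptor of the linear ubiquitin machinery. Its signals were 1368, 1083, 2157 and 1506 with tibolone and 76.2, 18.3, 2.40 and 83.1 in controls. No array of one group came near the other, and the log2 fold change was 4.93 ± 0.59 (limma, adjusted p = 0.00231). The other 2 probe sets of SPATA2 differed by 0.12 ± 0.17 and 0.09 ± 0.16, so the transcript behind this signal is uncertain and it is called here by its probe set. CEE arrays had 655, 201, 1613 and 499, and CEE+MPA arrays had 26.2, 11.3, 76.3 and 41.6, near the control level.

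The other 4 probe sets that rose carry no gene name in the annotation used here. MmugDNA.34701.1.S1_at had signals of 331, 706, 721 and 475 with tibolone and 109, 81.5, 115 and 56.1 in controls, with no overlap. The log2 fold change was 2.41 ± 0.26 (limma, adjusted p = 0.00163). Its CEE arrays, at 84.5 to 171, all lay below the tibolone arrays, and its CEE+MPA arrays lay at 94.7 to 149. Among the 7 it was the 1 that also passed the threshold against CEE, with 2.15 ± 0.26 (limma, adjusted p = 0.00721). That call against CEE was lost under 5 of 15 alternatives, with an adjusted p of 0.0541 without CEE array 1, 0.0610 with a block for the spike-in sets, 0.0929 with a skeletal muscle covariate, 0.167 within the high spike-in set and 0.425 without the arrays high in skeletal muscle. Against CEE, 2 of 28716 probe sets passed (0.00696%), 1 higher (0.00348%) and 1 lower (0.00348%) with tibolone. The other was MmugDNA.5037.1.S1_s_at, annotated to the serine protease TMPRSS3, which was lower with tibolone than with CEE, with a log2 difference of -4.57 ± 0.55 (limma, adjusted p = 0.00721). That probe set had signals of 205, 44.2, 32.2 and 40.8 with tibolone, 2699.7, 2054, 3689.8 and 545 with CEE and 12.1, 19.0, 33.9 and 37.6 in controls, and the other 3 TMPRSS3 probe sets did not pass.

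MmuSTS.335.1.S1_at had 831, 1104, 1826 and 866 with tibolone and 44.0, 66.4, 31.8 and 142 in controls, and its log2 fold change was 3.83 ± 0.57 (limma, adjusted p = 0.0267). MmugDNA.39200.1.S1_at had 1241, 3887, 2804 and 1951 with tibolone and 371, 427, 405 and 446 in controls, and its control arrays lay close together. Its log2 fold change was 2.42 ± 0.38 (limma, adjusted p = 0.0415). MmugDNA.21696.1.S1_at had 899.9, 2055, 1429 and 828 with tibolone and 301, 369, 283 and 241 in controls, and its log2 fold change was 1.99 ± 0.29 (limma, adjusted p = 0.0267). Neither group overlapped the other at any of these 3 probe sets. CEE arrays spread widely at all 3, at 174 to 1501, 613 to 2434 and 489.6 to 1417, and overlapped the tibolone arrays. Just outside the threshold lay MmugDNA.8704.1.S1_at, also without a gene name, with 4896, 7753, 3158 and 2722 with tibolone and 549, 1136, 358 and 340.1 in controls and a log2 difference of 2.98 ± 0.50 (limma, adjusted p = 0.071).

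**Figure D3:**
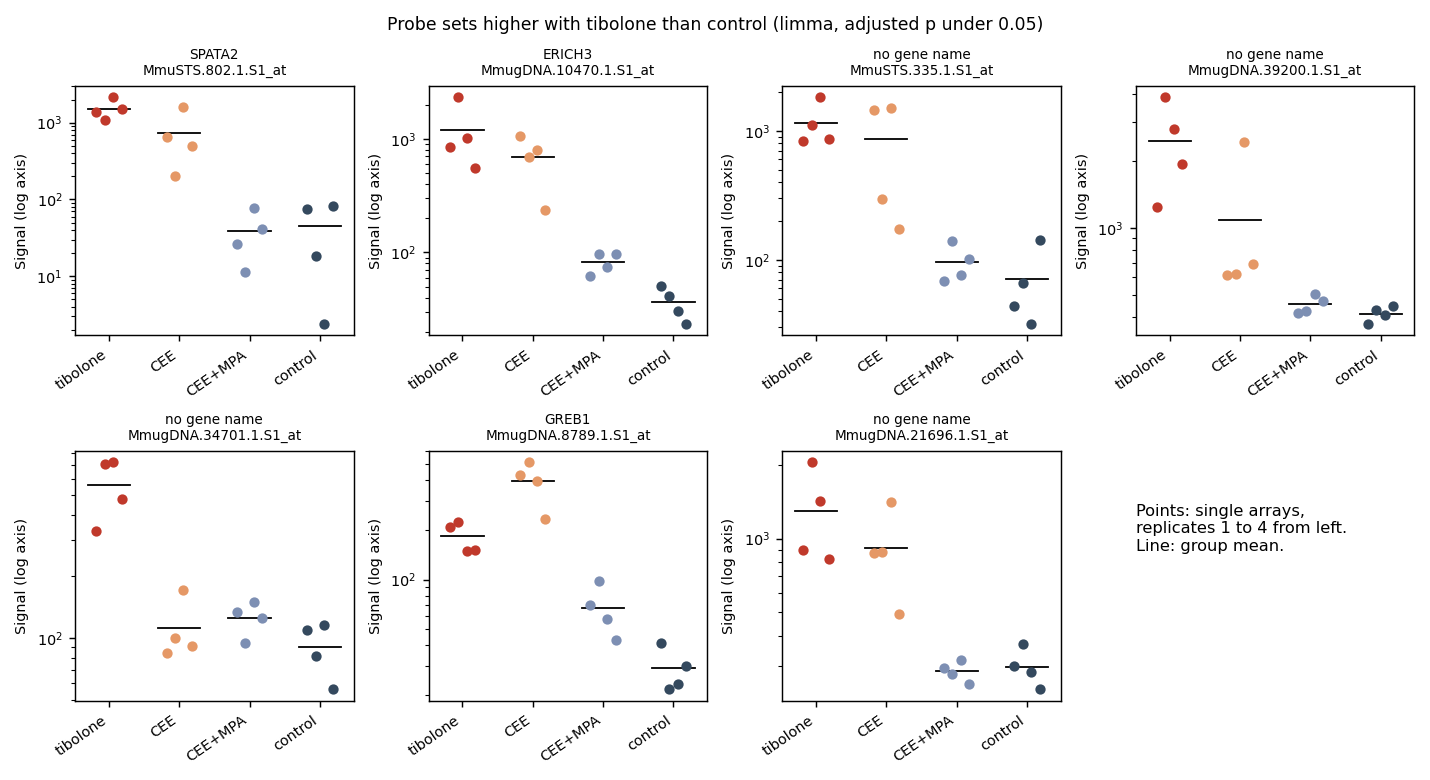
Signal on a log axis for the 7 probe sets that rose, on each of the 4 arrays of tibolone, CEE, CEE+MPA and control, with the group mean as a line. At all 7 the tibolone arrays lie above the control and CEE+MPA arrays, and at MmugDNA.34701.1.S1_at they also lie above all 4 CEE arrays (84.5 to 170.9).

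All 7 probe sets were also higher with tibolone than with CEE+MPA past the threshold, by log2 differences of 1.28 to 4.91 (limma, adjusted p between 0.00164 and 0.0130). In that comparison 1820 of 28716 probe sets passed (6.34%), 1086 higher (3.78%) and 734 lower (2.56%) with tibolone. The comparisons share the tibolone arrays. The rises against control differed in how far they rested on single animals. GREB1, the ERICH3 probe set, MmuSTS.802.1.S1_at and MmugDNA.34701.1.S1_at kept an adjusted p of at most 0.0175 with any 1 array of the 2 groups left out, whereas the other 3 lost the call under at least 1 such omission. The count of 7 probe sets that rose was 4 without control array 1, 4 without tibolone array 2 and 4 without tibolone array 3.

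The count of rises also depended on the arrays high in skeletal muscle and on the spike-in sets. Without the arrays high in skeletal muscle, which left tibolone arrays 1 and 4 against control arrays 2 to 4, 0 probe sets passed (limma), while 1044 were higher and 1161 lower at an unadjusted p under 0.05. The log2 fold changes were then 2.24 for GREB1, 3.89 for the ERICH3 probe set, 5.19 for MmuSTS.802.1.S1_at and 2.09 for MmugDNA.34701.1.S1_at, with adjusted p of 0.0799 to 0.141. They were 3.34 for MmuSTS.335.1.S1_at, 1.83 for MmugDNA.39200.1.S1_at and 1.51 for MmugDNA.21696.1.S1_at, with adjusted p of 0.473 to 0.565. Within the high spike-in set, tibolone against control arrays 1 and 2, 2 probe sets passed, of which 1 was the ERICH3 probe set, with a log2 fold change of 4.07 (adjusted p = 0.0422). GREB1 there had 2.08 (adjusted p = 0.0627). Control arrays 1 and 2 had higher spike-in signals than every tibolone array, so this subset did not match the groups for spike-in level.

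On the higher side, the 11 genes with the smallest p after GREB1 did not pass, with adjusted p from 0.101 to 0.374 (limma), so their values are given as a description. The tibolone arrays all lay above the control arrays for 10 of these 11, which were chosen by their p, and for 1.81% of all genes, and HSD3B2 was the exception.

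SCGB3A1, a small secretoglobin of epithelial secretions, had the largest difference of these genes. Its signals were 1854, 5679, 6748 and 2389 with tibolone and 167, 190.2, 958 and 139.6 in controls, where array 3 stood above the rest, and the log2 difference was 3.72 ± 0.70 (limma, adjusted p = 0.117). Without control array 3 it was 4.33 (adjusted p = 0.0465). KLK12, a secreted kallikrein protease, had 180.0, 359, 229.5 and 1141 with tibolone and 41.2, 14.6, 21.0 and 56.8 in controls. Its 3 tested probe sets had log2 differences of 3.03 to 3.45, with no overlap of the groups at any of them and adjusted p of 0.101 to 0.222.

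HSD3B2, an enzyme that converts delta-5 steroids to their delta-4 ketones and is one of the steps of steroid synthesis, had 65.7, 155, 417 and 165 with tibolone and 2.29, 7.47, 2.75 and 79.6 in controls. Control array 4 lay within the tibolone range, and the other 3 controls were at signals where the offset of 16 compresses differences. The log2 difference was 2.62 ± 0.50 (limma, adjusted p = 0.124), and without control array 4 it was 3.18 (adjusted p = 0.00675). HSD3B2 exceeded the signal that the filter required only on the tibolone arrays and control array 4. It thus entered the test through the group in which it was high, and its p-values serve as description. HSD3B2 was also higher with tibolone than with CEE+MPA by 2.38 ± 0.50 (adjusted p = 0.0199), a call lost without tibolone array 2 (2.41, adjusted p = 0.0606) and without tibolone array 3 (1.97, adjusted p = 0.0594), and its difference from CEE was 3.07 ± 0.50 (adjusted p = 0.0725).

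IGFBP1, which binds insulin-like growth factors in the circulation and in tissue, had 218, 384, 300.3 and 322 with tibolone and 105, 30.6, 26.4 and 69.5 in controls. The groups did not overlap, and the log2 difference was 2.23 ± 0.43 (limma, adjusted p = 0.124). As for GREB1, CEE arrays were higher still, at 689, 530.2, 2342 and 516, although the difference from CEE of -1.40 ± 0.43 missed the threshold (adjusted p = 0.273). CEE+MPA arrays were lower, at 6.47, 14.2, 12.8 and 30.2, and that difference of 3.36 ± 0.43 passed (adjusted p = 0.00247). IRS1, the adaptor through which the insulin and IGF receptors signal, had 349.5, 678, 698 and 323 with tibolone and 195, 255, 234 and 164 in controls, a log2 difference of 1.14 ± 0.27 (limma, adjusted p = 0.374).

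TTC36, a tetratricopeptide repeat protein, had 470.2, 1356, 777 and 617 with tibolone and 102, 179.8, 194 and 42.2 in controls, a log2 difference of 2.55 ± 0.46 (limma, adjusted p = 0.101). CHAD, the cartilage matrix protein chondroadherin, had 82.7, 194, 226 and 206 with tibolone and 33.4, 32.8, 23.4 and 43.7 in controls, with tibolone array 1 well below the other tibolone arrays. Its log2 difference was 1.90 ± 0.35 (limma, adjusted p = 0.115) and was 2.20 without tibolone array 1 (adjusted p = 0.0454). PPM1K, a mitochondrial phosphatase that activates the breakdown of branched-chain amino acids, had 535, 3229, 2267 and 1181 with tibolone and 233, 301, 442 and 333 in controls. Its 2 probe sets had log2 differences of 2.15 and 1.95.

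BATF, a transcription factor of the AP-1 family known from lymphocytes, had 151 to 398 with tibolone and 59.8 to 101 in controls, a log2 difference of 1.49 ± 0.32 (limma, adjusted p = 0.222). CCR6, a chemokine receptor of lymphocytes and dendritic cells, had 79.7 to 130.4 with tibolone and 48.8 to 66.2 in controls, a log2 difference of 0.75 ± 0.16 (limma, adjusted p = 0.237). NKRF, a repressor of NF-kappa-B targets, had 209 to 274 with tibolone and 139 to 164 in controls, a log2 difference of 0.59 ± 0.11 (limma, adjusted p = 0.124).

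Tibolone arrays 2 and 3, which were high in skeletal muscle genes, both stood above tibolone arrays 1 and 4 for 6 of these 11 genes, namely TTC36, SCGB3A1, BATF, CCR6, PPM1K and IRS1. The same held for 5 of the 7 probe sets that rose, namely the ERICH3 probe set, MmuSTS.335.1.S1_at, MmugDNA.39200.1.S1_at, MmugDNA.34701.1.S1_at and MmugDNA.21696.1.S1_at. The share of all probe sets or genes with this order was not computed, so these counts cannot be read as an excess. A link to skeletal muscle was not tested. Without the arrays high in skeletal muscle the log2 difference was 1.13 for PPM1K, 0.61 for IRS1 and 2.75 for SCGB3A1. It was 2.05 for TTC36, 1.12 for BATF, 0.57 for CCR6, 1.81 for HSD3B2, 2.35 for IGFBP1 and 3.45 for KLK12, and none of these 9 passed.

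**Figure D4:**
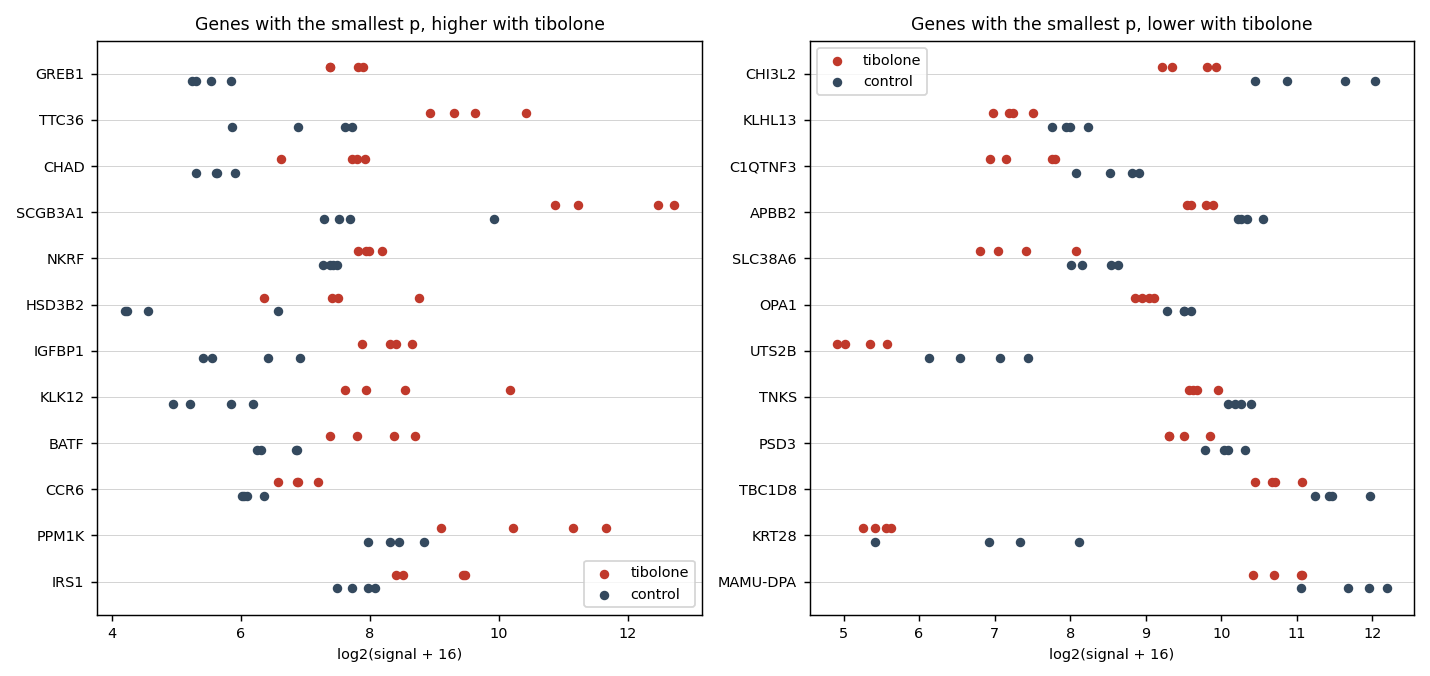
Log2(signal + 16) on each tibolone array and each control array for the 12 genes with the smallest p on the higher side (left, GREB1 first) and the 12 on the lower side (right). GREB1 is the 1 gene of the 24 past the threshold, and in HSD3B2, SLC38A6, PSD3, KRT28 and MAMU-DPA the groups overlap.

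On the lower side 0 genes passed, and the 12 with the smallest p had adjusted p from 0.199 to 0.648 (limma). CHI3L2, a secreted chitinase-like protein, was the first of them. Its signals were 958, 635, 881 and 581 with tibolone and 1373, 4190.3, 3185 and 1858 in controls, a log2 difference of -1.67 ± 0.34 with no overlap (limma, adjusted p = 0.199). The CEE arrays had 389.9, 773, 1124 and 707 and the CEE+MPA arrays 479, 612, 379 and 359, and neither difference from tibolone passed.

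C1QTNF3, a secreted protein of the C1q and TNF family, had 107, 207, 200.2 and 127 with tibolone and 434, 353, 466 and 254 in controls, a log2 difference of -1.17 ± 0.27 with no overlap (limma, adjusted p = 0.35). UTS2B, a peptide of the urotensin family, had 14.2, 16.5, 24.6 and 31.7 with tibolone and 77.4, 119, 157 and 53.8 in controls, a log2 difference of -1.58 ± 0.39 with no overlap (limma, adjusted p = 0.454). On every tibolone and CEE array UTS2B lay below the signal that the filter required. It entered the test through the control arrays at 77.4, 119 and 157 and a CEE+MPA array at 123. OPA1, which fuses mitochondrial inner membranes, had 537, 479.8, 513 and 446 with tibolone and 713, 713, 604 and 759 in controls, a small log2 difference of -0.48 ± 0.12 with no overlap (limma, adjusted p = 0.399). With the mean of the probe sets of OPA1 in place of this one, the difference was -0.068. At the single probe set used here, OPA1 was lower with tibolone than with CEE+MPA, with a log2 difference of -0.75 ± 0.12 that passed (limma, adjusted p = 0.00502). The mean of the OPA1 probe sets was not computed for that comparison.

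KRT28, a keratin of the hair root sheath, had 33.5, 31.2, 26.8 and 22.4 with tibolone and 26.6, 261, 146 and 106 in controls. Control array 1 lay at the tibolone level, and without it the log2 difference was -1.99 (adjusted p = 0.0180) in place of -1.48 ± 0.40 (limma, adjusted p = 0.635). On every tibolone and CEE array KRT28 lay below the signal that the filter required. It entered the test through the control arrays at 261, 146 and 106 and a CEE+MPA array at 73.5. MAMU-DPA, a class II histocompatibility alpha chain whose probe set may also detect related class II genes, had 1643, 2113, 2140.3 and 1349 with tibolone and 3262, 3956, 2111 and 4665 in controls, a log2 difference of -0.91 ± 0.25 (limma, adjusted p = 0.648).

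The remaining 6 had log2 differences between -0.998 and -0.52. KLHL13, an adaptor of a ubiquitin ligase, and TBC1D8, a protein with a Rab GTPase-activating domain, had log2 differences of -0.76 ± 0.17 and -0.80 ± 0.21. APBB2, which binds the amyloid precursor protein, had -0.63 ± 0.15, SLC38A6, an amino acid transporter, -0.998 ± 0.24, TNKS, the poly-ADP-ribosylating enzyme tankyrase, -0.52 ± 0.13, and PSD3, an exchange factor for ARF6, -0.56 ± 0.15. The groups did not overlap for KLHL13, TBC1D8, APBB2 and TNKS.

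Estrogen receptor targets were examined as a list of 40 genes, of which 32 were tested. GREB1 was the 1 member that rose, 0 fell, and the median log2 change was 0.03, against 0.01 over all genes. At an unadjusted p under 0.05, 4 members were higher and 2 lower, against 2.58% and 2.25% of all genes. ERICH3 counts in this list by another probe set, of higher mean signal, than the one that rose. SUSD3, a membrane protein induced by estrogen in breast cancer cells, had 570.4, 1027, 929 and 356 with tibolone and 365, 596, 178 and 201 in controls, a log2 difference of 1.11 ± 0.39 (limma, adjusted p = 0.865). PGR, the progesterone receptor and itself an estrogen target, had 59.1, 179, 56.6 and 5.80 with tibolone and 15.6, 20.3, 13.7 and 21.3 in controls. Tibolone arrays 1 to 3 stood above every control and array 4 below them all, for a log2 difference of 1.05 ± 0.48 (limma, adjusted p = 0.913). PGR exceeded the signal that the filter required only on tibolone array 2 and CEE arrays 1 to 3. The difference of PGR was 0.55 without tibolone array 2, 1.60 without tibolone array 4 and 0.24 without the arrays high in skeletal muscle. HTRA1, a secreted protease that inhibits TGF-beta signalling, was a member on the lower side, with 3357, 3772, 3631 and 3109.8 with tibolone and 6077, 5480.0, 4553 and 4147 in controls, no overlap and a log2 difference of -0.53 ± 0.15 (limma, adjusted p = 0.649).

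Among 16 tested steroid receptors and coregulators 0 passed, 3 were higher at an unadjusted p under 0.05 (2.58% of all genes were), and the median was 0.08. GATA3, a factor that sets luminal identity and the action of the estrogen receptor, had 9372, 8265, 6622 and 6950.1 with tibolone and 5748, 5301, 6044 and 5234 in controls. The groups did not overlap, and the log2 difference was 0.47 ± 0.17 (limma, adjusted p = 0.874). ESR2, the second estrogen receptor, had a log2 difference of 0.40 ± 0.18, and NR3C1, the glucocorticoid receptor, -0.44 ± 0.22, and their groups overlapped. ESR1 was on the array but its signal did not pass the filter, and the androgen receptor was not analysed here.

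The progesterone receptor targets showed 0 calls among 15 tested genes and a median of 0.27, which was -0.07 without tibolone array 4, 0.12 without control array 3 and 0.63 without the arrays high in skeletal muscle. CISH, a cytokine signalling inhibitor that progestin and prolactin induce, had 861, 1931, 939 and 1244 with tibolone and 1094, 639, 286 and 762 in controls, a log2 difference of 0.90 ± 0.39 (limma, adjusted p = 0.913). WNT4, a ligand that carries progesterone signals between mammary cells, had 161, 441, 46.9 and 127 with tibolone and 66.4, 64.9, 68.2 and 159 in controls, a log2 difference of 0.72 ± 0.45 (limma, adjusted p = 0.913). The difference of WNT4 was 0.23 without tibolone array 2 and 1.18 without tibolone array 3. The groups overlapped for both genes. EDN1, the vasoconstrictor endothelin, had -0.64 ± 0.36. TNFSF11 (RANKL) and FKBP5 were on the array but did not pass the filter.

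Androgen-regulated and apocrine genes held 0 calls among 13 tested, with a median of 0.05. At an unadjusted p under 0.05, 1 was higher and 1 lower, against 2.58% and 2.25% of all genes. HPGD, which inactivates prostaglandins, had 279, 361, 573 and 35.01 with tibolone and 37.5, 68.3, 60.2 and 79.3 in controls, so 3 tibolone arrays stood above all controls and array 4 below them all. Its log2 difference was 1.67 ± 0.55 (limma, adjusted p = 0.823), 2.41 without tibolone array 4 (adjusted p = 0.0167) and 0.53 without the arrays high in skeletal muscle. CLDN8, a tight junction claudin, had -0.71 ± 0.31, GGT1, the glutathione-cleaving gamma-glutamyltransferase, 0.53 ± 0.25, and PIP, the prolactin-induced apocrine protein, -0.97 ± 0.66. Glucocorticoid receptor targets had 0 calls among 13 and a median of -0.09.

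Genes of tibolone and steroid conversion were tested for 10 of the 32 listed. None passed (limma), 1 was higher at an unadjusted p under 0.05 (2.58% of all genes were), and the median was 0.15. Of the 10 tested, 9 lay above 0, against 52.4% of all genes. The member with an unadjusted p under 0.05 was HSD3B2, which passed the filter through the tibolone arrays and control array 4. HSD17B2, which oxidizes estradiol to estrone, had 371, 126, 147 and 146 with tibolone and 254, 217, 176 and 202 in controls, a log2 difference of -0.22 ± 0.35 (limma, adjusted p = 0.952). HSD17B1, which runs the opposite reaction, and HSD17B4, a peroxisomal enzyme that also oxidizes estradiol, had 0.20 ± 0.25 and 0.18 ± 0.16, with overlapping groups. Sulfatase, estrogen sulfotransferase and AKR1C3 were not analysed here.

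Insulin-like growth factor genes held 0 calls among 16 tested and had a median of 0.14. At an unadjusted p under 0.05, 3 were higher and 0 lower, against 2.58% and 2.25% of all genes. Besides IGFBP1 and IRS1 the third was IGF1R, the receptor, with 340.0, 373, 304 and 382 with tibolone and 310.3, 240.1, 175 and 237 in controls, a log2 difference of 0.53 ± 0.18 (limma, adjusted p = 0.837). IGFBP6, which prefers IGF2, had 0.36 ± 0.24.

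The prolactin and STAT5 axis, which drives milk gene expression, held 0 calls among 11 tested and had a median of 0.22. At an unadjusted p under 0.05, 2 were higher (CISH and SOCS1), against 2.58% of all genes. SOCS1, a feedback inhibitor of cytokine receptors, had 362, 399, 443 and 274 with tibolone and 242, 283, 209 and 281 in controls, a log2 difference of 0.50 ± 0.18 (limma, adjusted p = 0.87). STAT5A, the transcription factor of the axis, had 388, 468, 374 and 957 with tibolone and 286, 189.8, 436 and 701 in controls, with array 4 the highest of its group in both and a log2 difference of 0.47 ± 0.33.

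Milk protein and milk fat genes lay mostly below 0, and for several of them 2 tibolone animals stood far below the others. Of 18 tested 0 passed, and 3 were lower at an unadjusted p under 0.05, against 2.25% of all genes. Below 0 lay 15 of them, while 52.4% of all genes lay above 0. The list mean per array (centred log2) was -1.25 to 0.67 with tibolone and -0.16 to 0.78 in controls, so the groups overlapped. The median was -0.30, which was -0.10 without control array 1 and -0.58 without control array 3. Within the high spike-in set the median of milk protein and milk fat genes was -0.73. LALBA (alpha-lactalbumin), the milk protein that turns galactosyltransferase into lactose synthase, had 23851, 16607, 799 and 106 with tibolone and 16713, 16922, 10825 and 17956 in controls. Tibolone arrays 1 and 2 lay at the control level and arrays 3 and 4 far below it, and the log2 difference was -2.61 ± 1.31 (limma, adjusted p = 0.913). OLAH, the thioesterase that releases medium-chain milk fatty acids, had 2001, 1395, 80.6 and 266 with tibolone and 1017, 3753, 2011 and 1276 in controls. FOLR1, a folate receptor of secretory epithelium, had 1526, 959, 113 and 282 with tibolone and 2979, 1259.7, 587 and 1223 in controls, and for both genes arrays 3 and 4 were again the low ones. LPO (lactoperoxidase) was lower on every tibolone array, with 421, 520.5, 282 and 427 with tibolone and 1083, 739, 784 and 597 in controls, a log2 difference of -0.93 ± 0.30 (limma, adjusted p = 0.823). CSN2 did not share the pattern, at 17462, 12043, 11871 and 15888 with tibolone and 12109, 12162, 12139 and 11988 in controls.

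Secreted defence proteins and osteopontin had the lowest median of the 37 lists, -0.66 over 21 tested genes, against 0.01 over all genes. None passed (limma), and 4 were lower and 0 higher at an unadjusted p under 0.05, against 2.25% and 2.58% of all genes. Of the 21, 16 lay below 0, while 52.4% of all genes lay above 0. The list mean per array (centred log2) was -0.44 to 0.59 with tibolone and 0.14 to 1.42 in controls, so the groups overlapped. The median was -0.27 without control array 2, and no alternative gave a value above 0. CHI3L1, a secreted glycoprotein related to CHI3L2, had 819.9, 859, 704 and 634 with tibolone and 1087, 1435, 1227 and 1072 in controls, with no overlap and a log2 difference of -0.67 ± 0.21 (limma, adjusted p = 0.797). SLPI, an inhibitor of leukocyte proteases, had 767, 1278, 913 and 736 with tibolone and 1231, 2463, 1889 and 862 in controls, a log2 difference of -0.72 ± 0.27 (limma, adjusted p = 0.901). BPIFB1, a secreted protein of mucosal defence, had 216, 378, 91.8 and 69.6 with tibolone and 959, 508, 214 and 221 in controls, a log2 difference of -1.26 ± 0.59 (limma, adjusted p = 0.913). SPP1 (osteopontin) spread over 458 to 14504 with tibolone and 7211 to 12741 in controls, and its difference of -1.53 ± 1.06 did not pass (limma, adjusted p = 0.913). The luminal epithelial list, whose cells secrete several of these proteins, had means of -0.49 to 0.32 on the tibolone arrays and -0.13 to 0.08 on the control arrays. With that mean as a covariate the median of secreted defence proteins and osteopontin was -0.64, and within the high spike-in set it was -0.39. Whether luminal content contributed to the lower values was not tested.

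Cell cycle and DNA replication genes had the highest median of the lists, 0.38, and 30 of 33 tested genes lay above 0, against 52.4% of all genes. The list mean per array (centred log2) was -0.56 to 0.70 with tibolone and -0.66 to 0.04 in controls, so the groups overlapped. No member passed and 0 had an unadjusted p under 0.05 (limma). MCM5, a subunit of the replicative helicase, had 1552, 486, 886 and 590.1 with tibolone and 579, 586, 453 and 458 in controls, a log2 difference of 0.61 ± 0.37 (limma, adjusted p = 0.913). MKI67, the proliferation marker Ki-67, had 284, 103, 206 and 127 with tibolone and 120.3, 86.7, 110.0 and 153 in controls, a log2 difference of 0.48 ± 0.43 (limma, adjusted p = 0.922). Tibolone arrays 1 and 3 were the high ones for both genes, and the groups overlapped. MCM4 and MCM2, of the same helicase, had 0.45 ± 0.22 and 0.47 ± 0.27, and CCNE2, a cyclin of entry into S phase, 0.37 ± 0.23. The median of the cell cycle and DNA replication list was 0.22 without tibolone array 1, 0.25 without control array 2 and 0.59 without tibolone array 2.

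**Figure D5:**
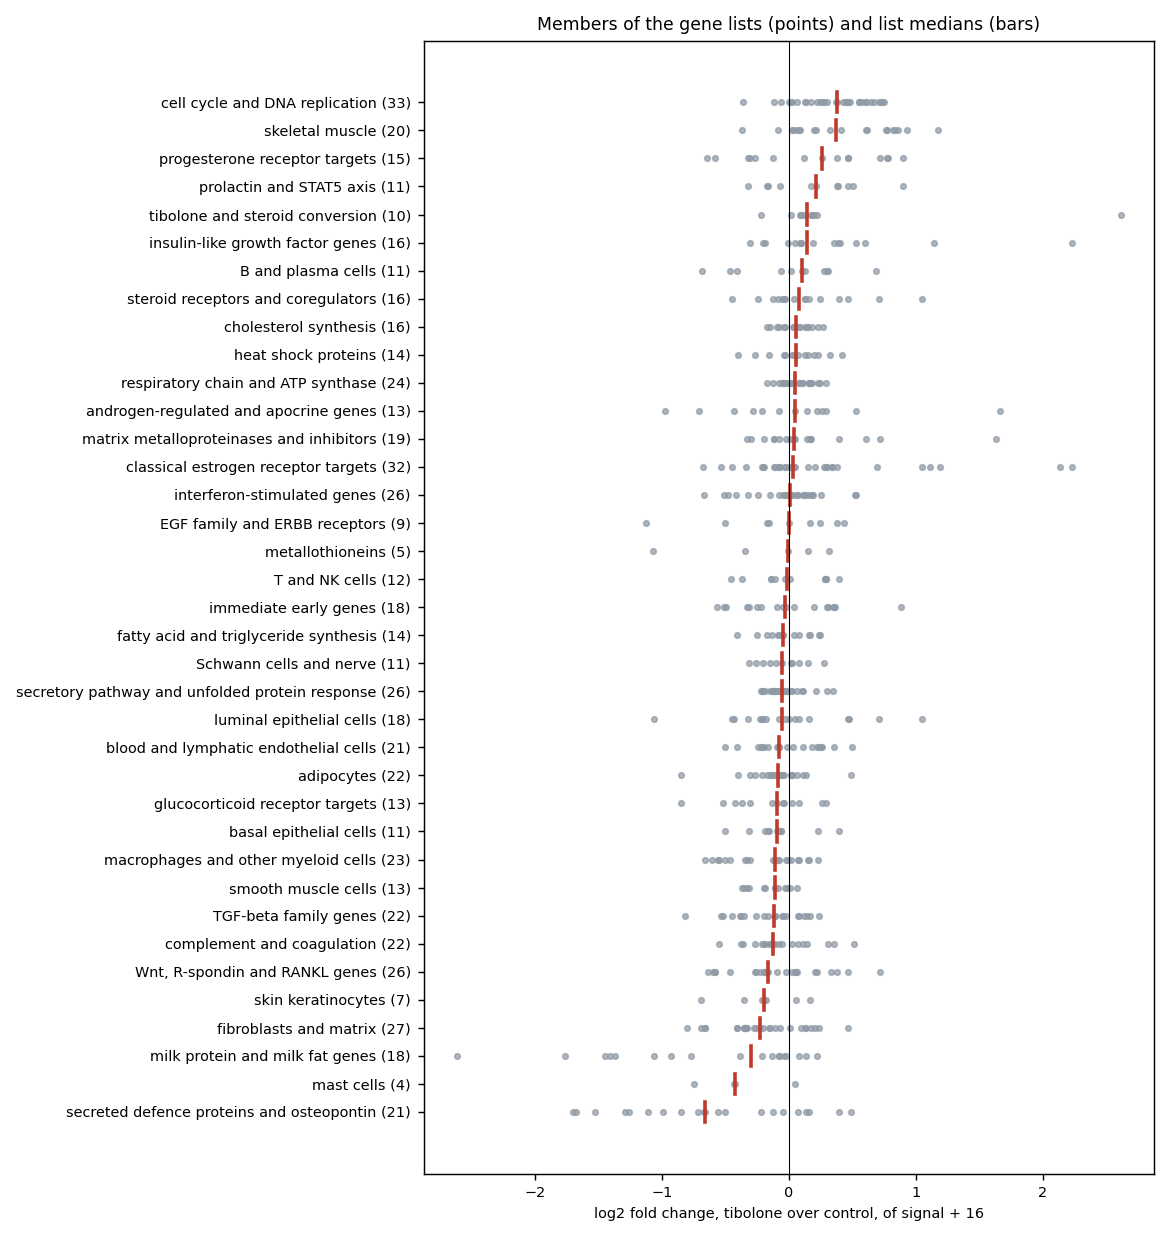
Log2 fold change of signal + 16 (tibolone over control) for the tested members of 37 gene lists, 1 point per gene, with the list median as a bar and the number tested in brackets. The medians run from 0.38 for cell cycle genes to -0.66 for secreted defence proteins, and GREB1 is the 1 point past the threshold.

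Ligand families of the mammary gland held no calls. Wnt, R-spondin and RANKL genes had a median of -0.16 over 26 tested, with 0 at an unadjusted p under 0.05 (limma). WNT3 and WNT5A, Wnt ligands, had -0.59 ± 0.30 and -0.63 ± 0.40, and LGR5, the R-spondin receptor of stem and progenitor cells, had 567, 605, 305 and 61.8 with tibolone and 279.5, 1088, 574 and 218 in controls. LGR5 had a log2 difference of -0.58 ± 0.61, which was 0.08 without tibolone array 4. The EGF family and ERBB receptors had a median of -0.0016 over 9 tested. EGF had 67.7, 56.5, 2.07 and 280.4 with tibolone and 122, 58.9, 267 and 236 in controls, and EGFR, its receptor, differed by -0.50 ± 0.38. TGF-beta family genes had a median of -0.11 over 22 tested, with 3 lower at an unadjusted p under 0.05, against 2.25% of all genes. These were HTRA1, the BMP antagonist CHRDL1 at -0.82 ± 0.28 and the activin receptor ACVR2A at -0.35 ± 0.16. DLK1, a membrane protein of the Notch ligand family, had 378, 93.3, 133 and 418 with tibolone and 197, 28.2, 182 and 157 in controls. Its difference from control was 0.78 ± 0.57, and against CEE+MPA it was lower with tibolone, with a log2 difference of -2.28 ± 0.57 that passed (limma, adjusted p = 0.0335).

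Fibroblast and matrix genes lay mostly below 0 with tibolone. Of 27 tested in the list of fibroblasts and matrix 0 passed, and the median was -0.23. At an unadjusted p under 0.05, 4 were lower and 0 higher, against 2.25% and 2.58% of all genes. Below 0 lay 19 of them, while 52.4% of all genes lay above 0. The list mean per array (centred log2) was -0.11 to 0.35 with tibolone and 0.12 to 0.52 in controls, so the groups overlapped. In bulk tissue fewer cells of a type and less RNA per cell cannot be told apart. COL1A1, the main chain of fibrillar collagen, had 2071, 2887, 2874 and 2998 with tibolone and 5696, 4875, 4835 and 3611 in controls, with no overlap and a log2 difference of -0.80 ± 0.31 (limma, adjusted p = 0.901). S100A4, a calcium-binding protein of fibroblasts and leukocytes, had 2119, 3758, 3444 and 3582 with tibolone and 4929.7, 4555, 6204 and 4393 in controls, again with no overlap, and a log2 difference of -0.66 ± 0.27 (limma, adjusted p = 0.901). OGN and DPT, small matrix proteins that bind collagen, had -0.69 ± 0.28 and -0.66 ± 0.30, and FBLN1, a fibulin of elastic fibres, -0.35 ± 0.25. FBLN1 was higher with tibolone than with CEE+MPA, by 2.16 ± 0.25 (limma, adjusted p = 0.00143). Without the arrays high in skeletal muscle the list median was -0.44, and it was -0.14 without tibolone array 4 and -0.15 with a block for the spike-in sets.

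Other cell type lists held 0 calls as well. Luminal epithelial cells had a median of -0.05 over 18 tested. GATA3 and PGR were its 2 members at an unadjusted p under 0.05, both higher, against 2.58% of all genes. Basal epithelial cells had a median of -0.10 over 11, smooth muscle cells -0.11 over 13, and adipocytes -0.08 over 22. Blood and lymphatic endothelial cells had -0.07 over 21. Skeletal muscle had 0.37 over 20, which was -0.08 without the arrays high in it, -0.05 without tibolone array 2 and 1.12 without control array 1.

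Macrophages and other myeloid cells had a median of -0.10 over 23 tested, with 2 lower at an unadjusted p under 0.05, against 2.25% of all genes. The median of macrophages and other myeloid cells was -0.61 without the arrays high in skeletal muscle, 0.07 without tibolone array 4, -0.35 without tibolone array 3, -0.21 without control array 1, -0.17 without control array 3 and -0.06 without control array 4. MS4A7, a membrane protein of macrophages, had 527, 493, 616 and 404 with tibolone and 671, 692, 706 and 941 in controls, with no overlap and a log2 difference of -0.55 ± 0.19 (limma, adjusted p = 0.837). CD68, a lysosomal protein of macrophages, had -0.60 ± 0.28. T and NK cells had a median of -0.01 over 12, B and plasma cells 0.11 over 11, and mast cells -0.43 over 4. Skin keratinocytes had -0.20 over 7, and Schwann cells and nerve -0.05 over 11.

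Stress, defence and metabolic lists had medians of small size. Interferon-stimulated genes had 0.01 over 26 tested, heat shock proteins 0.06 over 14, immediate early genes -0.03 over 18, and metallothioneins, close copies whose probe sets may not tell them apart, -0.0027 over 5. OAS2, an interferon-induced enzyme that senses double-stranded RNA, had 84.9 to 139.5 with tibolone and 54.1 to 84.4 in controls, with no overlap and a log2 difference of 0.53 ± 0.19 (limma, adjusted p = 0.874), while IFIT1 and IFI44 of the same list had -0.66 ± 0.34 and -0.41 ± 0.22. Complement and coagulation genes had -0.13 over 22, with CFI, the protease that inactivates complement C3b, at 304 to 352 with tibolone and 353 to 582 in controls, a log2 difference of -0.55 ± 0.20 (limma, adjusted p = 0.89). Matrix metalloproteinases and inhibitors had 0.04 over 19, with MMP3 (stromelysin) at 184, 1197, 696 and 141 with tibolone and 73.6, 71.3, 159.9 and 196 in controls. Cholesterol synthesis had 0.06 over 16, fatty acid and triglyceride synthesis -0.05 over 14, the respiratory chain and ATP synthase 0.05 over 24, and the secretory pathway and unfolded protein response -0.05 over 26. No member of these lists passed. Under at least 1 of 24 alternatives the median changed sign for 23 of the 37 lists, of which progesterone receptor targets and skeletal muscle are given above and the others had medians of at most 0.13 in size. Median centring or quantile normalization changed the sign for 2 of the lists.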

How the data were processed

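Biotin-labelled total RNA was hybridized to Affymetrix rhesus macaque arrays, per the labels. The deposited values were linear signal intensity per probe set, already scaled by the authors: the mean after trimming 2% of values at each end was 250.0 on every array, and medians were 55.8 to 66.5. GCOS and Expression Console appear in the submitters' processing notes, while the signal algorithm is not given in the sources used here. No detection calls or scan data were used.

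Signals were transformed as log2(signal + 16), which understates the changes of dim genes. A linear model in limma held a mean for each of the 4 groups, with 16 arrays in all, and p-values were adjusted by Benjamini and Hochberg over 28716 probe sets within each comparison. Errors of log2 values are standard errors. The platform annotation gives 25330 probe sets a symbol, 361 of them several, which were not named, and leaves 27535 without. Each gene was represented by whichever of its tested probe sets had the highest mean signal. Of 10455 genes, 9560 were found in the cynomolgus RefSeq table. For the 37 lists, 931 genes were listed in all and 584 were tested, each counted once.

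Genes named were the 12 with the smallest adjusted p in each direction, members of each list with the smallest p (at most 4) and a panel. TMPRSS3, KRT19, CSN2, CKM and further probe sets of named genes were chosen after their values were seen. Members and lists were chosen with earlier results of these data known. Fits were tested on simulated data. Alternatives changed scaling, filter, offset, prior, weights, groups in the fit, probe sets per gene, threshold, spike-in sets, skeletal muscle, GAPDH ratio and luminal signal, and left out each array. The number of arrays limits the precision. The fits ran in R 4.3.3 with limma 3.58.1, and the plots in Python 3.11.15 with matplotlib 3.10.9.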

Additional observations from a re-analysis of the deposited data

Results flagged for a closer look

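In 14 of 188 groups of 4 arrays examined for the named probe sets, the gap between 1 array and the nearest other, as a share of the range, passed the critical value of Dixon's test, and chance alone does so in about 1 of 20 groups. Tibolone array 1 was low for CHAD at 82.7, for CHRDL1 at 21.5, for COL1A1 at 2071 and for S100A4 at 2119, and high for HSD17B2 at 371. Tibolone array 2 was high for TGFB3, a TGF-beta ligand, at 467. Tibolone array 3 was high for GGT1 at 219.7 and for MS4A6A, a macrophage membrane protein, at 652. Control array 2 was low for DLK1 at 28.2. Control array 3 was high for SCGB3A1 at 958 and low for LALBA at 10825. Control array 4 was high for HSD3B2 at 79.6, for WNT4 at 159 and for MS4A7 at 941.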

How the results depend on the processing

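No paired analysis was possible because animals were in a single group each and replicate numbers follow only the order of deposit. The count of 7 probe sets that rose was 11 with array weights, 11 with a luminal epithelial covariate, 4 with only the 2 groups compared, 4 with a block for the spike-in sets, 4 with dap signal as a covariate, 2 within the high spike-in set and 0 without the arrays high in skeletal muscle, and 4 to 9 with 1 array left out. The count of 0 that fell was 1 with the filter at the 75th percentile and 0 to 3 with 1 array left out. The count of 1 gene that rose was 3 with the mean of probe sets per gene, 2 with the luminal epithelial covariate, 0 with the filter at the 75th percentile (where GREB1 was not tested), 0 within the high spike-in set, 0 without the arrays high in skeletal muscle, and 1 to 2 with 1 array left out; for genes that fell it was 0 to 2. The subsets hold fewer arrays, while the block and the covariates were fitted to all 16. The cause of these shifts was not tested. Against control the sign turned for HSD17B2 (0.019 with that block, 0.23 without the arrays high in skeletal muscle), LGR5 (0.083 without tibolone replicate 4, and -0.92 to 0.083 with 1 array left out), HSD17B4 (-0.049 with the mean of probe sets per gene) and CKM (-0.044 within the high spike-in set). Against CEE it turned for IRS1 (-0.086 without the arrays high in skeletal muscle) and CHI3L2 (-0.055 with the block, -0.25 within the high spike-in set, and -0.18 to 0.31 with 1 array left out, below 0 without CEE replicate 1 and without tibolone replicate 1). None of these had passed. Of 2413 values recomputed for 94 items against control, 2356 kept their direction and side of the threshold. For the items that had not passed, this means only that they stayed uncalled with the same sign. Only the 7 probe sets that rose had a call to lose, and 46 of their values lost it. MmugDNA.39200.1.S1_at lost the call under 16, MmuSTS.335.1.S1_at under 12 and MmugDNA.21696.1.S1_at under 10 of 25 alternatives, and the other 4 under 1 to 3. Against CEE+MPA 247 of 300 values kept direction and side and 51 lost the call, among them GREB1 under 3 and HSD3B2 under 4 of 15 alternatives. Against CEE 285 of 300 kept both. The 5 values that lost the call there all belonged to MmugDNA.34701.1.S1_at, with 15 alternatives.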
